A study of Arabidopsis thaliana with 9 samples.

Results

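The genes described here make, move and break down glucosinolates, the sulfur-rich defence compounds of the mustard family, in seedlings of Arabidopsis thaliana. A list of 45 gene identifiers, with no threshold on measured values, defined them: 26 genes of the aliphatic pathway and its regulators, 14 of the indolic pathway and its regulators, the transporters GTR1 and GTR2, and the breakdown genes TGG1, TGG2 and ESP. Of the 45, 44 were among the 27814 rows of the deposited count table and 43 had enough counts to be tested with 21425 genes in all. AOP2 was not analysed here, and AOP3 had 0 counts in 8 libraries and 5 counts in AtCXE15-OE replicate 1. Both encode dioxygenases that modify the aliphatic side chain.

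RNA of whole seedlings was sequenced in 9 libraries, 3 per group. The atd14-1 group carries a mutation in D14, the receptor through which plants perceive strigolactone hormones. The AtCXE15-OE group overexpresses the carboxylesterase AtCXE15, which degrades strigolactones; the labels name neither the promoter of the transgene nor the number of lines. Col-0 is the wild-type accession. No group was treated, all grew at 22 °C with 16 h of light, and the labels give their age as 8 days in one field and 10 days in another. Separate plants are not stated for the 3 libraries of a group, and the p-values therefore reflect library-to-library spread that may be technical. Library totals were 37724263 to 54421069 counts. Levels are given as CPM, read counts scaled to a common library size. D14 had 6.48 to 6.92 CPM in atd14-1, 43.4 to 45.1 CPM in AtCXE15-OE and 44.8 to 45.3 CPM in Col-0, and CXE15 had 2.94 to 3.09, 739 to 964 and 3.73 to 4.12 CPM in those groups, so both genes went with the labels.

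Aliphatic glucosinolates are built from methionine, whose side chain is first lengthened in the chloroplast, while indolic glucosinolates are built from tryptophan. Both kinds then pass through a shared sequence of reactions (an aldoxime, a glutathione conjugate, a C-S lyase step, a sugar and a sulfate) with enzymes that partly differ between the branches, and separate sets of MYB transcription factors activate each branch. Intact glucosinolates are moved between cells by dedicated importers and are split by myrosinases when tissue is damaged.

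The aliphatic branch was higher in atd14-1 seedlings than in Col-0. Of 24 aliphatic genes tested, 15 rose, 0 fell and 9 did not pass the test, which was edgeR's quasi-likelihood test with Benjamini-Hochberg adjustment over all tested genes and a threshold of 0.05. Across all 21425 genes 5.06% were called higher, 6.87% lower and 11.9% in either direction. The members were chosen with earlier results of these data known, so an excess over these shares is no test. The rises were small, from 1.14-fold for UGT74C1 to 1.45-fold for CYP79F1. Of 14 indolic genes tested, 0 rose and 3 fell: MYB51, CYP79B3 and IGMT2. DESeq2 and limma-voom also called 0 aliphatic genes lower and 0 indolic genes higher. The median log2 fold change was 0.31 over the aliphatic genes and -0.11 over the indolic genes, beside 0.01 over all genes tested. Counting transport and breakdown, 17 of 43 members rose and 4 fell. Over all genes 1084 were called higher and 1472 lower, and scaling by library size alone gave 2241 and 968, with 21 members higher and 3 lower.

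In AtCXE15-OE seedlings fewer members differed from Col-0. Here 2 of 24 aliphatic genes rose (BASS5 and GSTU20), 2 of 14 indolic genes fell (MYB51 and CYP79B3), TGG1 and TGG2 fell, and 37 of 43 members did not pass the test. Across all genes 0.761% were called higher, 1.51% lower and 2.27% in either direction. The median log2 fold change was 0.10 over the aliphatic genes and -0.19 over the indolic genes, 13 of 14 of which lay below 0, beside 0.00 over all genes. The count of members called changed when 1 library was left out. Without AtCXE15-OE replicate 1, 2 or 3 it was 10, 3 or 2, and without Col-0 replicate 1 or 2 it was 2 or 0. In DESeq2's Wald test it was 14. Over all genes 163 were called higher and 324 lower, and 220 and 274 with scaling by library size alone, where 4 members rose and 4 fell.

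Between the lines, 13 of 43 members were higher in atd14-1 than in AtCXE15-OE and 0 were lower (0 also in DESeq2 and limma-voom), where 2.82% of all genes were called higher and 4.12% lower (6.94% in either direction). Of these, 10 were aliphatic, 2 indolic (SOT16 and CYP81F3) and 1 a transporter (GTR2). Median log2 fold changes were 0.20 over aliphatic and 0.08 over indolic genes. The count was 6 without atd14-1 replicate 1, 5 without atd14-1 replicate 2, 6 without atd14-1 replicate 3, 5 without AtCXE15-OE replicate 3 and 8 without Col-0 replicate 1. Over all genes 604 were called higher and 882 lower, and 1060 and 551 with scaling by library size alone, where 19 members were higher and 0 lower. The comparisons of atd14-1 and AtCXE15-OE with Col-0 share the 3 Col-0 libraries, so their values are given side by side and their likeness is no separate result.

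**Figure D1:**
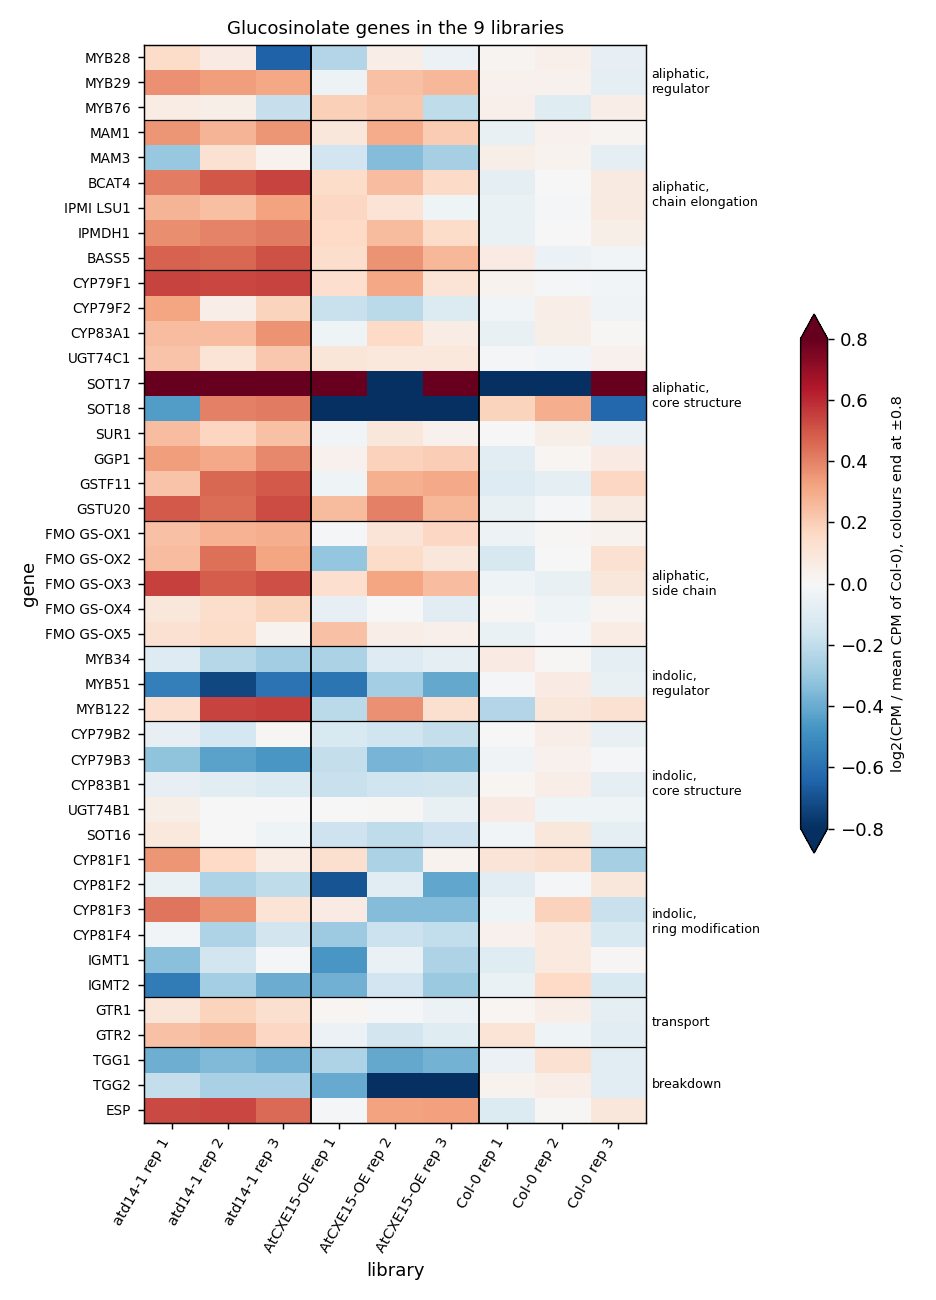
Colour shows log2 of the TMM-scaled CPM of each tested member over its mean in Col-0 (rows: genes, grouped by role; columns: the 9 libraries, atd14-1 at the left and Col-0 at the right); colours end at ±0.8. Aliphatic genes of chain elongation and core structure are mostly red in the 3 atd14-1 libraries and paler in AtCXE15-OE, and SOT17 and SOT18 change colour within groups.

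The shift of the branch was present in each library. Relative to the Col-0 mean, the median log2 level of the 24 aliphatic genes was 0.26, 0.29 and 0.34 in the atd14-1 libraries, 0.06, 0.15 and 0.10 in the AtCXE15-OE libraries and -0.04, 0.00 and 0.03 in the Col-0 libraries. Neither line's libraries overlapped with those of Col-0 or of the other line. For the 14 indolic genes the medians were -0.06, -0.14 and -0.07 in atd14-1, -0.20, -0.16 and -0.19 in AtCXE15-OE and -0.01, 0.07 and -0.07 in Col-0. Here the AtCXE15-OE libraries were the lowest of all 9, and atd14-1 overlapped with Col-0. Whole seedlings hold many cell types, and fewer cells of a type cannot be told apart from less RNA per cell in such samples. Markers of leaf mesophyll also differed: 7 of 10 fell in atd14-1 (median log2 fold change -0.45), beside 6.87% of all genes. In AtCXE15-OE 0 of 10 changed (median -0.11, with 2 at an unadjusted p under 0.05), beside 2.27% of all genes. The summed level of the 10 markers was 30980 to 35230 CPM in atd14-1, 37590 to 43700 CPM in AtCXE15-OE and 41540 to 45220 CPM in Col-0, with no marker at 0. In that sum RBCS1A jumped within groups, with 7110, 3600 and 4030 CPM in atd14-1 and 4840, 1600 and 4310 CPM in AtCXE15-OE. RBCS2B had 1200, 1370 and 85.2 CPM in Col-0. Of 11 root markers, 0 passed the test in any of the 3 comparisons, with summed levels of 295.7 to 316.3 CPM in atd14-1, 286.8 to 313.9 CPM in AtCXE15-OE and 302.7 to 321.7 CPM in Col-0. The part of tissue makeup in the gene results was not tested.

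Chain elongation, the plastid cycle that lengthens methionine, had 5 of its 6 genes higher in atd14-1, beside 5.06% of all genes. BCAT4 (AT3G19710), the aminotransferase that opens the cycle, had 294, 313 and 323 CPM in atd14-1, 245, 263 and 247 CPM in AtCXE15-OE and 210, 222 and 233 CPM in Col-0. MAM1 (AT5G23010), a methylthioalkylmalate synthase that adds the carbon, had 512, 483 and 512 CPM in atd14-1, 427, 493 and 461 CPM in AtCXE15-OE and 385, 411 and 406 CPM in Col-0. The large subunit of the isomerase, IPMI LSU1 (AT4G13430), had 382, 374 and 395 CPM in atd14-1, 354, 341 and 308 CPM in AtCXE15-OE and 304, 312 and 332 CPM in Col-0. In these 3 genes each atd14-1 library lay above each Col-0 library, and in BCAT4 and MAM1 each AtCXE15-OE library did too. Here and below, such separation of libraries is description only and adds no evidence to the test. The share of all genes that separate this way is not given. The dehydrogenase IPMDH1 (AT5G14200) had 258, 263 and 266 CPM in atd14-1, 223, 238 and 221 CPM in AtCXE15-OE and 192, 200 and 206 CPM in Col-0. BASS5 (AT4G12030), the transporter of oxo acids at the chloroplast envelope, had 77, 76.6 and 79.1 CPM in atd14-1, 61.4, 71.4 and 66.9 CPM in AtCXE15-OE and 58.2, 53.8 and 54.9 CPM in Col-0. For both genes, as for BCAT4, atd14-1 was highest, AtCXE15-OE lay between and Col-0 was lowest, without overlap between groups. Against Col-0 the log2 fold changes in atd14-1 were 0.48 ± 0.06 for BCAT4, 0.48 ± 0.06 for BASS5, 0.40 ± 0.05 for IPMDH1, 0.33 ± 0.06 for MAM1 and 0.28 ± 0.06 for IPMI LSU1 (± approximate SE, n = 3 each; edgeR adjusted p from 7.16e-05 to 0.00696). In AtCXE15-OE the same quantities were 0.18 ± 0.06, 0.26 ± 0.06, 0.19 ± 0.05, 0.20 ± 0.06 and 0.08 ± 0.06, and BASS5 alone of the 5 passed (edgeR adjusted p = 0.0378). That call was lost on leaving out any single library other than AtCXE15-OE replicate 1, with a highest adjusted p of 0.164 over the alternatives. Between the lines BCAT4 (0.30 ± 0.06), IPMDH1 (0.21 ± 0.05) and BASS5 (0.22 ± 0.06) were higher in atd14-1 (edgeR adjusted p = 0.006, 0.0225 and 0.042). The IPMDH1 difference was lost without atd14-1 replicate 1, 2 or 3 or AtCXE15-OE replicate 3, and it was 0.12 (adjusted p = 0.156) once the rows that overlap it were added. The BASS5 difference was lost on leaving out any single library other than AtCXE15-OE replicate 2; BCAT4 kept its call in all 19 alternatives.

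MAM3 (AT5G23020), the paralog of MAM1 that also makes the long-chain products, stood apart from the other 5. It had 86.5, 116 and 109 CPM in atd14-1, 96.1, 84 and 88.7 CPM in AtCXE15-OE and 110, 109 and 101 CPM in Col-0, with the atd14-1 libraries spread around those of Col-0. Its log2 fold change was -0.04 ± 0.10 in atd14-1 and -0.25 ± 0.10 in AtCXE15-OE (edgeR adjusted p = 0.883 and 0.32). MAM1 and MAM3 are neighbours on chromosome 5 in the RefSeq annotation of TAIR10.1 (chr5:7703041-7706973 and chr5:7718118-7721866). When their counts were added the sum was 0.26 higher on the log2 scale in atd14-1 (edgeR adjusted p = 0.00438), and MAM1 was the more abundant of the pair, at 291 ± 9.6 CPM per kilobase of gene length in atd14-1 against 49.2 ± 7.32 for MAM3 (SD, n = 3).

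In the core of the pathway 7 of 10 genes rose in atd14-1, beside 5.06% of all genes. CYP79F1 (AT1G16410), the cytochrome P450 that turns lengthened methionine into an aldoxime, had 406, 405 and 406 CPM in atd14-1, 307, 346 and 301 CPM in AtCXE15-OE and 285, 278 and 275 CPM in Col-0. The 3 atd14-1 libraries were within 1 CPM of each other and far above the rest. CYP83A1 (AT4G13770), which oxidises the aldoximes, had 373, 373 and 403 CPM in atd14-1, 307, 351 and 328 CPM in AtCXE15-OE and 302, 325 and 317 CPM in Col-0. For conjugation with glutathione, GSTU20 (AT1G78370) had 305, 295 and 311 CPM in atd14-1, 258, 287 and 260 CPM in AtCXE15-OE and 208, 214 and 228 CPM in Col-0. GSTF11 (AT3G03190), another glutathione transferase, had 22.7, 26.6 and 27.2 CPM in atd14-1, 18.9, 23.6 and 23.9 CPM in AtCXE15-OE and 18, 18.4 and 21.7 CPM in Col-0. In each of these genes the atd14-1 libraries lay above those of Col-0, and in CYP79F1 and GSTU20 the AtCXE15-OE libraries did too. GGP1 (AT4G30530), the peptidase that trims the conjugate, had 202, 198 and 209 CPM in atd14-1, 164, 182 and 184 CPM in AtCXE15-OE and 151, 162 and 168 CPM in Col-0. SUR1 (AT2G20610), the C-S lyase that serves both branches, had 237, 225 and 235 CPM in atd14-1, 196, 212 and 204 CPM in AtCXE15-OE and 200, 206 and 192 CPM in Col-0. The list counts GGP1 and SUR1 as aliphatic. With SUR1, and with GGP1, whose step the branches share, the aliphatic count is not limited to enzymes of that branch alone. The glucosyltransferase UGT74C1 (AT2G31790) had 137, 126 and 136 CPM in atd14-1, 125, 124 and 124 CPM in AtCXE15-OE and 116, 115 and 120 CPM in Col-0. These 3 also separated atd14-1 from Col-0 without overlap, and in UGT74C1 the AtCXE15-OE libraries also lay above those of Col-0.

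Against Col-0 the log2 fold changes in atd14-1 were 0.54 ± 0.06 for CYP79F1, 0.49 ± 0.06 for GSTU20, 0.40 ± 0.11 for GSTF11, 0.34 ± 0.06 for GGP1, 0.28 ± 0.06 for CYP83A1, 0.22 ± 0.05 for SUR1 and 0.18 ± 0.05 for UGT74C1, with edgeR adjusted p from 2.64e-05 (CYP79F1) to 0.0297 (GSTF11). CYP79F1 was the most changed of the aliphatic genes that passed. In AtCXE15-OE, GSTU20 rose by 0.31 ± 0.06 (edgeR adjusted p = 0.00994) and the other 6 had log2 fold changes of 0.19 ± 0.06 for CYP79F1, 0.19 ± 0.11 for GSTF11, 0.14 ± 0.06 for GGP1, 0.09 ± 0.05 for UGT74C1, 0.06 ± 0.06 for CYP83A1 and 0.03 ± 0.05 for SUR1, none past the test. Between the lines CYP79F1 (0.35 ± 0.06), CYP83A1 (0.22 ± 0.06) and SUR1 (0.19 ± 0.05) were higher in atd14-1, with edgeR adjusted p of 0.00206, 0.04 and 0.0401. Several of these calls were lost when 1 library was left out, while the changes kept their direction. In atd14-1 against Col-0, UGT74C1 lost its call without atd14-1 replicate 1 or 3 or Col-0 replicate 1 or 2, and with the row that overlaps it added its change was 0.09 (edgeR adjusted p = 0.283). GSTF11 lost its call without atd14-1 replicate 2 or 3 or Col-0 replicate 1 or 2. In AtCXE15-OE against Col-0, GSTU20 lost its call without Col-0 replicate 1 or 2. Between the lines, CYP83A1 lost its call on leaving out any single library other than AtCXE15-OE replicate 2, and SUR1 on leaving out any other than Col-0 replicate 3.

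CYP79F2 (AT1G16400), which acts on the long-chain methionines, had 66.4, 55.4 and 60.3 CPM in atd14-1, 47.2, 46 and 49.4 CPM in AtCXE15-OE and 52.4, 55.3 and 52.2 CPM in Col-0. The atd14-1 libraries were the highest and the AtCXE15-OE libraries the lowest, without overlap between groups. Its log2 fold change was 0.19 ± 0.07 in atd14-1 and -0.16 ± 0.07 in AtCXE15-OE against Col-0 (edgeR adjusted p = 0.096 and 0.314), and atd14-1 was higher than AtCXE15-OE by 0.35 ± 0.07 (edgeR adjusted p = 0.00675). In the count table the row of CYP79F1 (chr1:5605159-5611426) contains that of CYP79F2 (chr1:5605159-5607473), so reads of the pair may have been split between the rows. Their sum was 0.49 higher on the log2 scale in atd14-1 than in Col-0 (edgeR adjusted p = 1.07e-05).

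The aliphatic sulfotransferases SOT17 and SOT18, which finish the core structure, could not be read from their own rows. SOT17 (AT1G18590) had 78.6, 78.9 and 77.5 CPM in atd14-1, 71.3, 3.43 and 72.2 CPM in AtCXE15-OE and 3.12, 2.68 and 67.2 CPM in Col-0. It was thus near 3 CPM in AtCXE15-OE replicate 2 and in Col-0 replicates 1 and 2, and between 67.2 and 78.9 CPM in the other 6 libraries. The log2 fold change of 1.68 ± 1.51 in atd14-1 against Col-0 is therefore no usable estimate (edgeR adjusted p = 0.581), and it was 4.75 without Col-0 replicate 3. SOT18 (AT1G74090) had 64.8, 117 and 118 CPM in atd14-1, 26.8, 21.5 and 20.3 CPM in AtCXE15-OE and 100, 108 and 57.3 CPM in Col-0. Its AtCXE15-OE libraries were the lowest, with a log2 fold change of -1.95 ± 0.34 against Col-0 (edgeR adjusted p = 0.0511) and atd14-1 above AtCXE15-OE by 2.13 ± 0.35 (edgeR adjusted p = 0.0196). The row AT1G74088 (chr1:27861116-27864193) contains SOT18 on the same strand, and it had 69.1, 4.35 and 3.95 CPM in atd14-1, 84.2, 90.4 and 86.0 CPM in AtCXE15-OE and 5.01, 4.48 and 41.9 CPM in Col-0. It was high where SOT18 was low. Both rows together held 134, 121 and 122 CPM in atd14-1, 111, 112 and 106 CPM in AtCXE15-OE and 105, 113 and 99.1 CPM in Col-0. With the rows added, atd14-1 was higher than Col-0 by 0.25 on the log2 scale (edgeR adjusted p = 0.00662) and higher than AtCXE15-OE by 0.19, and AtCXE15-OE differed from Col-0 by 0.06 (adjusted p = 0.751). The difference of SOT18 between the lines was also lost without atd14-1 replicate 2 or 3 or AtCXE15-OE replicate 2 or 3.

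**Figure D2:**
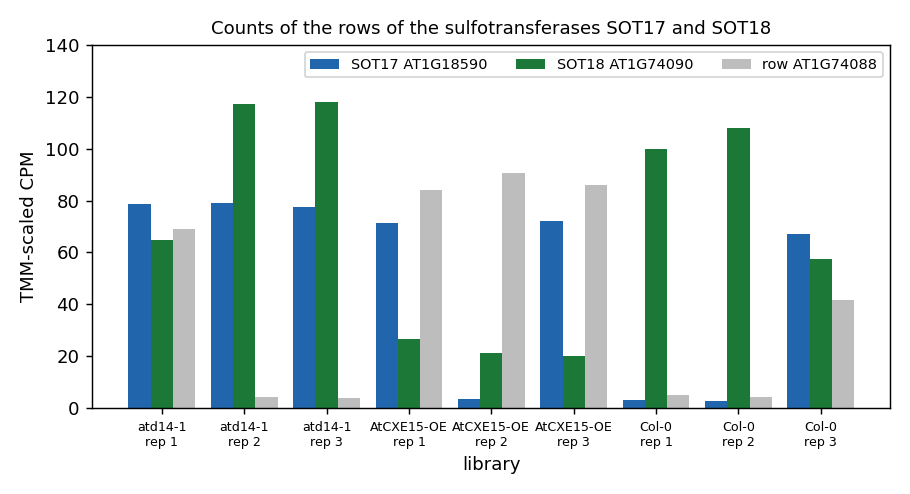
Bars give the TMM-scaled CPM of the rows of SOT17, SOT18 and AT1G74088 (y axis) in each of the 9 libraries (x axis). SOT17 is at 2.68 to 3.43 CPM in 3 libraries, and AT1G74088 is high in those libraries where SOT18 is low, as in the 3 AtCXE15-OE libraries.

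The promoters of 3 aliphatic genes that rose in atd14-1 and hold a G-box (CACGTG, the element that MYC transcription factors bind) are shown because MYC and MYB factors together activate this branch. Each is the 250 bases before the annotated gene start, read 5′ to 3′ on the gene's own strand from the RefSeq assembly TAIR10.1: IPMI LSU1 at chr4:7807985-7808234, CYP83A1 at chr4:7992430-7992679 and SUR1 at chr2:8880441-8880690, all on the minus strand. Capitals mark the G-box and, in SUR1, both forms of the AC element, which MYB factors bind: first ACCAAAC, and nearer the start its relative ACCTAAC, which lies on the opposite strand and so reads GTTAGGT.
IPMI LSU1: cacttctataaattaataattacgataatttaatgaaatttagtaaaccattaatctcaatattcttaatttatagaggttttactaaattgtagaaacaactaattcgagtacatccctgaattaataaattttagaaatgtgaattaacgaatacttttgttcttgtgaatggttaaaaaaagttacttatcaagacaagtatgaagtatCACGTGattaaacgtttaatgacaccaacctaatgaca
CYP83A1: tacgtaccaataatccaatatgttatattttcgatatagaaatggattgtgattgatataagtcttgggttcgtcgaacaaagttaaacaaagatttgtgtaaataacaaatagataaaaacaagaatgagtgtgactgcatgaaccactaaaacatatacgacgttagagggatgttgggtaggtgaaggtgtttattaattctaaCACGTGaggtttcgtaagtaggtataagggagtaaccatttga
SUR1: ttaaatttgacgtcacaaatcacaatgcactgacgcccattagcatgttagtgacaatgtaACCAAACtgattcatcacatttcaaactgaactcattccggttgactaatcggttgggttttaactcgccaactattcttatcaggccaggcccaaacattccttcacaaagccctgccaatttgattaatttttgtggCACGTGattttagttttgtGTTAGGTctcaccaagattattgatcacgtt
The first base of the G-box lies 38 bases before the start in IPMI LSU1, 43 in CYP83A1 and 50 in SUR1. On either strand, CACGTG was in 3 of 25 aliphatic windows (12.0%), which are the 3 shown, in 0 of 14 indolic windows and in 1780 of 27443 windows of all protein-coding genes (6.49%). An AC element (either ACCAAAC or, as its variant, ACCTAAC) was in 3 of 25 aliphatic windows (12.0%), in 0 of 14 indolic windows and in 2886 of all 27443 (10.5%). CYP79F1, with the largest rise of the 15, held neither motif in its window. These matches describe letters only.

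In side-chain modification 2 of 5 tested genes rose in atd14-1 and 0 in AtCXE15-OE, where 1 had an unadjusted p under 0.05 and DESeq2 called FMO GS-OX3. The shares of all genes called higher were 5.06% in atd14-1 and 0.761% in AtCXE15-OE. FMO GS-OX3 (AT1G62560), one of the monooxygenases that oxidise the sulfur of the side chain, had 80, 76.4 and 78.1 CPM in atd14-1, 59.9, 67.9 and 64.8 CPM in AtCXE15-OE and 53.3, 52.4 and 58.3 CPM in Col-0. FMO GS-OX1 (AT1G65860) had 45.2, 46.6 and 46.9 CPM in atd14-1, 38.1, 41.2 and 43.1 CPM in AtCXE15-OE and 37.3, 38.7 and 39.1 CPM in Col-0. Both were higher in every atd14-1 library than in any Col-0 library, as was FMO GS-OX3 in every AtCXE15-OE library. Their log2 fold changes were 0.52 ± 0.06 and 0.27 ± 0.06 in atd14-1 against Col-0 (edgeR adjusted p = 7.16e-05 and 0.0106), and 0.23 ± 0.06 and 0.09 ± 0.06 in AtCXE15-OE (adjusted p = 0.0683 and 0.613). FMO GS-OX4 (AT1G62570) had 81.5, 84.2 and 86.6 CPM in atd14-1, 73.1, 76.2 and 72 CPM in AtCXE15-OE and 77, 74.8 and 77.7 CPM in Col-0. It was highest in atd14-1, and the other groups overlapped. Between the lines, FMO GS-OX3 was 0.28 ± 0.06 and FMO GS-OX4 0.19 ± 0.05 higher in atd14-1 (edgeR adjusted p = 0.0121 and 0.0304). FMO GS-OX2 and FMO GS-OX5 passed in no comparison of the 9-library fit, with log2 fold changes of 0.34 ± 0.11 and 0.10 ± 0.07 in atd14-1 and -0.01 ± 0.11 and 0.11 ± 0.07 in AtCXE15-OE against Col-0. FMO GS-OX2 was called higher in atd14-1 in 6 of 19 alternatives, DESeq2 and the fit of only the 6 libraries compared among them. The call of FMO GS-OX1 was lost without Col-0 replicate 1 (edgeR adjusted p = 0.0522), that of FMO GS-OX3 between the lines without atd14-1 replicate 1, and that of FMO GS-OX4 on leaving out any atd14-1 replicate or AtCXE15-OE replicate 2 or 3.

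Of the 3 MYB activators of the aliphatic branch, 1 rose in atd14-1, beside 5.06% of all genes. MYB29 (AT5G07690) had 60.3, 59 and 58.2 CPM in atd14-1, 45.6, 55.1 and 56.4 CPM in AtCXE15-OE and 47.9, 48.1 and 44.6 CPM in Col-0. Its atd14-1 libraries lay above all others, and AtCXE15-OE overlapped with Col-0. MYB29 changed by 0.34 ± 0.08 on the log2 scale in atd14-1 and 0.16 ± 0.08 in AtCXE15-OE (edgeR adjusted p = 0.00896 and 0.39). MYB28 (AT5G61420) had 146, 138 and 84.3 CPM in atd14-1, 112, 137 and 128 CPM in AtCXE15-OE and 134, 136 and 126 CPM in Col-0. Replicate 3 of atd14-1 was far below the other two, and the log2 fold change of -0.10 ± 0.21 (edgeR adjusted p = 0.833) turned to 0.11 without it. MYB76 (AT5G07700) had 5.79, 5.74 and 4.9 CPM in atd14-1, 6.35, 6.49 and 4.82 CPM in AtCXE15-OE and 5.72, 5.2 and 5.76 CPM in Col-0 and changed in no comparison, with a log2 fold change of -0.02 ± 0.15 in atd14-1. Per kilobase of the table's gene length, mean levels of MYB28, MYB29 and MYB76 were 67.9 ± 18.5, 37.1 ± 0.668 and 5.38 ± 0.49 CPM in atd14-1 and 72.9 ± 2.94, 29.4 ± 1.24 and 5.47 ± 0.307 CPM in Col-0 (SD, n = 3 each).

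Of the 3 indolic regulators, 1 fell in both lines, beside 6.87% of all genes in atd14-1 and 1.51% in AtCXE15-OE. MYB51 (AT1G18570) had 20.9, 18.4 and 20.3 CPM in atd14-1, 20.4, 25.3 and 23 CPM in AtCXE15-OE and 30.4, 31.9 and 29.3 CPM in Col-0. Neither line overlapped with Col-0, and the lines overlapped with each other. It was 1.54-fold lower in atd14-1, a log2 fold change of -0.62 ± 0.09, and 1.33-fold lower in AtCXE15-OE, -0.41 ± 0.09 (edgeR adjusted p = 0.000295 and 0.0214); the direct difference between the lines was -0.21 ± 0.09 (adjusted p = 0.19). The AtCXE15-OE call was lost without AtCXE15-OE replicate 1 or 3 or Col-0 replicate 1 or 2, with adjusted p up to 0.0998. MYB34 (AT5G60890) had 69.6, 63.7 and 61.5 CPM in atd14-1, 62.6, 69.4 and 71.1 CPM in AtCXE15-OE and 78, 75.1 and 70.9 CPM in Col-0. Its atd14-1 libraries lay below those of Col-0, but its log2 fold changes of -0.20 ± 0.06 and -0.14 ± 0.06 did not pass (edgeR adjusted p = 0.0603 and 0.378). In 5 of 19 alternatives, DESeq2 among them, it was called lower in atd14-1, with a lowest adjusted p of 0.0286. MYB122 (AT1G74080) was the least abundant, with 2.04, 2.71 and 2.73 CPM in atd14-1, 1.6, 2.4 and 2.03 CPM in AtCXE15-OE and 1.58, 1.98 and 2.02 CPM in Col-0. Its atd14-1 libraries lay above those of Col-0, but the log2 fold change of 0.42 ± 0.23 did not pass (edgeR adjusted p = 0.281).

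**Figure D3:**
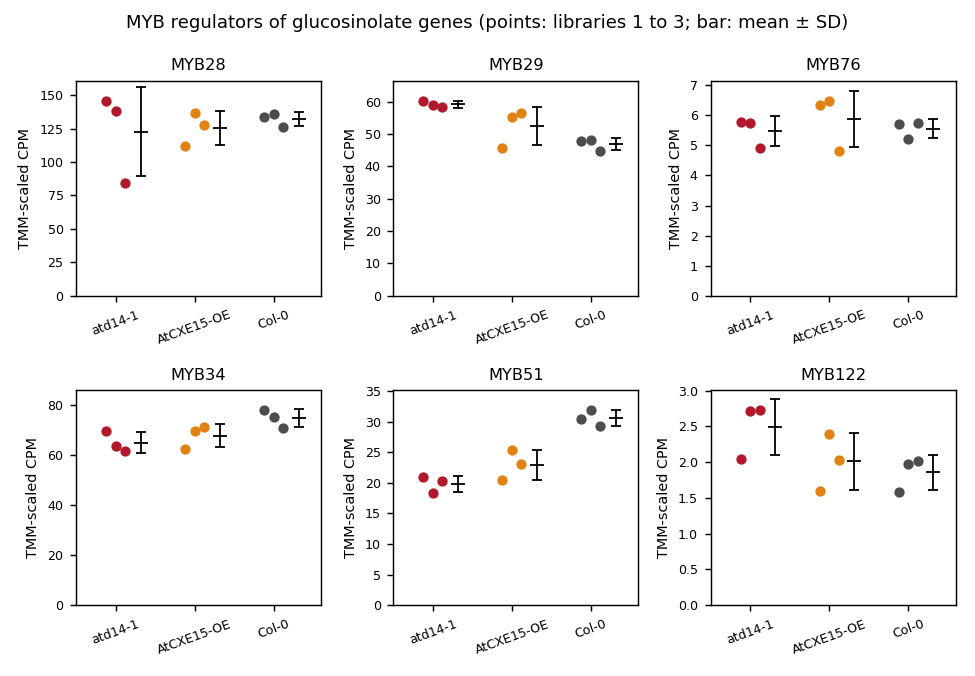
Points are the TMM-scaled CPM of each library (y axis, starting at 0) for the 6 MYB regulators in atd14-1, AtCXE15-OE and Col-0, with the mean ± SD of the 3 libraries as a bar beside them. MYB29 is highest in atd14-1 (58.2 to 60.3 CPM), MYB51 is highest in Col-0 (29.3 to 31.9 CPM), and 1 atd14-1 library of MYB28 stands alone at 84.3 CPM.

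Among the enzymes of the indolic core, 1 of 5 fell in each line, beside 6.87% of all genes in atd14-1 and 1.51% in AtCXE15-OE. CYP79B3 (AT2G22330), which with CYP79B2 converts tryptophan to indole-3-acetaldoxime, had 115, 107 and 104 CPM in atd14-1, 126, 111 and 112 CPM in AtCXE15-OE and 141, 147 and 143 CPM in Col-0. Each library of both lines was below each Col-0 library. The log2 fold changes were -0.41 ± 0.06 in atd14-1 and -0.30 ± 0.06 in AtCXE15-OE (edgeR adjusted p = 0.000376 and 0.0134), and the AtCXE15-OE call was lost without AtCXE15-OE replicate 2 or 3 or Col-0 replicate 2. Its partner CYP79B2 did not pass, at -0.06 ± 0.05 in atd14-1 and -0.15 ± 0.05 in AtCXE15-OE (edgeR adjusted p = 0.551 and 0.193). CYP83B1, which oxidises the aldoxime, had -0.09 ± 0.05 and -0.16 ± 0.05, and the glucosyltransferase UGT74B1 had 0.01 ± 0.05 and -0.01 ± 0.05. The sulfotransferase SOT16 (AT1G74100) had 146, 138 and 135 CPM in atd14-1, 123, 120 and 123 CPM in AtCXE15-OE and 136, 147 and 131 CPM in Col-0. The AtCXE15-OE libraries were the lowest, and atd14-1 overlapped with Col-0. SOT16 was 0.20 ± 0.05 higher on the log2 scale in atd14-1 than in AtCXE15-OE (edgeR adjusted p = 0.0393), lost on leaving out any atd14-1 replicate, AtCXE15-OE replicate 2 or 3 or Col-0 replicate 1.

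Ring modification, by the CYP81F hydroxylases and the IGMT methyltransferases, had 1 of 6 genes lower in atd14-1 and 0 of 6 changed in AtCXE15-OE, where 3 had an unadjusted p under 0.05 and DESeq2 called CYP81F4. Of all genes, 6.87% were called lower in atd14-1 and 2.27% in either direction in AtCXE15-OE. IGMT2 (AT1G21120) had 6.87, 8.39 and 7.7 CPM in atd14-1, 7.76, 9.11 and 8.24 CPM in AtCXE15-OE and 9.78, 11.3 and 9.31 CPM in Col-0. Each atd14-1 library was below each Col-0 library, and the log2 fold change was -0.40 ± 0.12 (edgeR adjusted p = 0.0472). That call was lost in 14 of 19 alternatives, including on leaving out any single library other than AtCXE15-OE replicate 1, and the row of IGMT1 (chr1:7386839-7400605) contains that of IGMT2 in the table. CYP81F3 (AT4G37400) had 23.4, 22.3 and 18.8 CPM in atd14-1, 18.2, 13.7 and 13.7 CPM in AtCXE15-OE and 17, 19.8 and 15.4 CPM in Col-0. The atd14-1 libraries overlapped with Col-0 but not with AtCXE15-OE, where the direct log2 difference was 0.50 ± 0.13 (edgeR adjusted p = 0.0356); it was lost without atd14-1 replicate 1 or 2, AtCXE15-OE replicate 2 or 3 or Col-0 replicate 1. CYP81F4 was the most abundant indolic gene per kilobase, at 347 ± 27.7 CPM in atd14-1, 328 ± 13.7 CPM in AtCXE15-OE and 381 ± 27 CPM in Col-0 (SD, n = 3 each). Its log2 fold changes of -0.13 ± 0.07 and -0.22 ± 0.07 did not pass. The row AT4G37409, which overlaps CYP81F4 over 2140 bases, had 0, 0 and 0 CPM in atd14-1. It had 44.2, 16.3 and 34.1 CPM in AtCXE15-OE and 0, 13.8 and 12.7 CPM in Col-0. Reads of CYP81F4 may have been split between the rows. CYP81F1, CYP81F2 and IGMT1 ranged from -0.17 ± 0.13 to 0.20 ± 0.13 in atd14-1 and from -0.37 ± 0.14 to -0.02 ± 0.13 in AtCXE15-OE, and passed in neither.

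**Figure D4:**
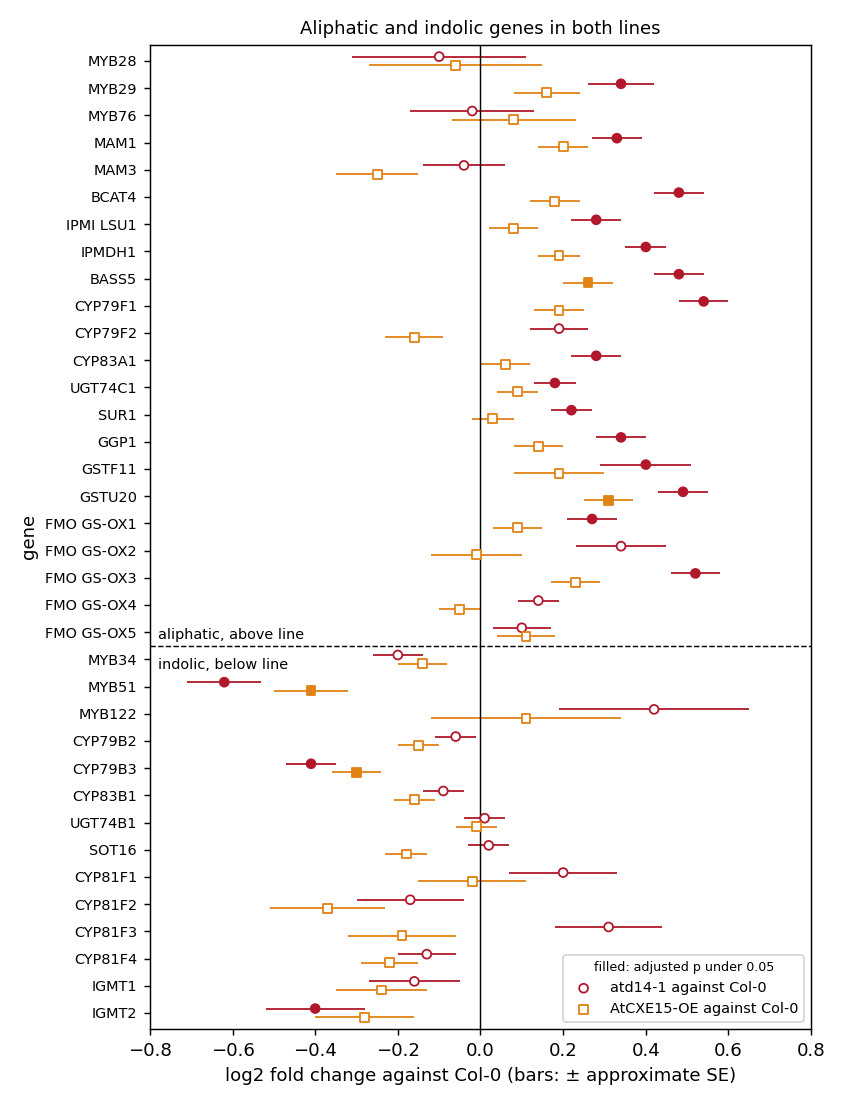
Points give the log2 fold change against Col-0 (x axis) of 22 aliphatic and 14 indolic genes (y axis) in atd14-1 (circles) and AtCXE15-OE (squares), filled where the adjusted p was under 0.05; bars are the approximate SE. SOT17 and SOT18 are left out because their rows change within groups. Aliphatic genes lie mostly to the right of 0 in atd14-1 and nearer to 0 in AtCXE15-OE, while MYB51 and CYP79B3 lie to the left in both.

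Of the importers that load glucosinolates into the phloem, GTR2 (AT5G62680) had 141, 143 and 134 CPM in atd14-1, 116, 108 and 112 CPM in AtCXE15-OE and 129, 117 and 113 CPM in Col-0. The atd14-1 libraries were above the others, and AtCXE15-OE overlapped with Col-0. GTR2 rose by 0.22 ± 0.06 on the log2 scale in atd14-1 against Col-0 and was 0.31 ± 0.06 higher than in AtCXE15-OE (edgeR adjusted p = 0.0201 and 0.00457), while AtCXE15-OE differed from Col-0 by -0.09 ± 0.06 (adjusted p = 0.557). The call against Col-0 was lost without atd14-1 replicate 1 or 2 or Col-0 replicate 2 or 3. With the overlapping row AT5G62670 added, the change against Col-0 was 0.07 (edgeR adjusted p = 0.374). GTR1 (AT3G47960) had log2 fold changes of 0.14 ± 0.05 and -0.01 ± 0.05 and did not pass (edgeR adjusted p = 0.105 and 0.955), though its atd14-1 libraries lay above those of Col-0.

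Per kilobase, the myrosinases were the most abundant members. TGG1 (AT5G26000) had 2850, 2930 and 2870 CPM in atd14-1, 3150, 2820 and 2880 CPM in AtCXE15-OE and 3620, 4070 and 3530 CPM in Col-0. TGG2 (AT5G25980) had 1460, 1390 and 1390 CPM in atd14-1, 1260, 882 and 849 CPM in AtCXE15-OE and 1700, 1730 and 1570 CPM in Col-0. Every library of both lines was below every Col-0 library for both genes, and AtCXE15-OE replicate 1 lay above its other replicates. TGG1 fell by 0.37 on the log2 scale in atd14-1 and by 0.34 in AtCXE15-OE (edgeR adjusted p = 0.0011 and 0.00873); the second call was lost without Col-0 replicate 2 (adjusted p = 0.0554). TGG2 had -0.24 ± 0.14 in atd14-1 (edgeR adjusted p = 0.369) and -0.74 ± 0.14 in AtCXE15-OE (adjusted p = 0.047), a call lost on leaving out any single library other than AtCXE15-OE replicate 1. Between the lines TGG2 differed by 0.50 ± 0.14 (edgeR adjusted p = 0.0908). In these units TGG1 averaged 1520 ± 21.3 CPM in atd14-1, 1550 ± 92.8 CPM in AtCXE15-OE and 1970 ± 154 CPM in Col-0, against 758 ± 22.1, 535 ± 123 and 896 ± 45.4 CPM for TGG2 in those groups (SD, n = 3 each). Myrosinases are made in guard cells and myrosin cells, and 2 of 6 markers of those cells also fell in atd14-1: FAMA, a transcription factor needed to form both, by 0.42 (edgeR adjusted p = 0.000585), and the potassium channel KAT1 by 0.31 (adjusted p = 0.0151). Over all genes 6.87% were called lower in this comparison. In AtCXE15-OE 0 of 6 changed in edgeR's test, with 1 at an unadjusted p under 0.05, beside 2.27% of all genes. The summed level of the 6 was 109.8 to 112.2 CPM in atd14-1, 126.7 to 133.2 CPM in AtCXE15-OE and 131.7 to 140.6 CPM in Col-0, with no marker at 0; their part in the myrosinase result was not tested. ESP (AT1G54040), which turns myrosinase products towards nitriles, had 33.3, 33.4 and 31.6 CPM in atd14-1, 22.9, 28.8 and 28.9 CPM in AtCXE15-OE and 21.4, 23.2 and 24.6 CPM in Col-0. It went the opposite way from TGG1: it rose by 0.51 ± 0.09 in atd14-1 (edgeR adjusted p = 0.00209), and AtCXE15-OE differed from Col-0 by 0.22 ± 0.09 (adjusted p = 0.314).

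**Figure D5:**
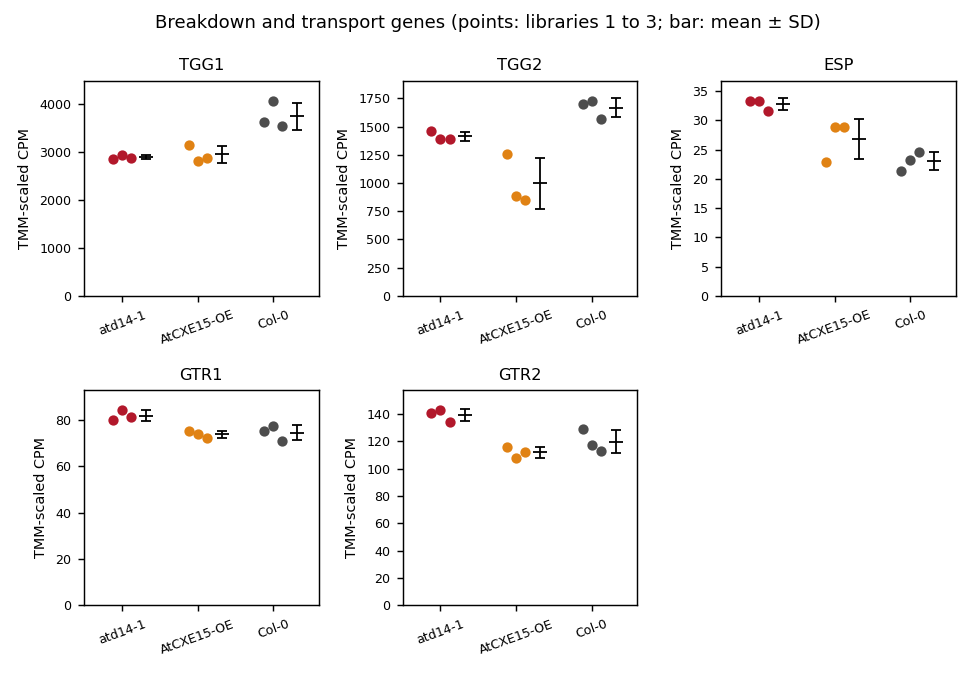
Points are the TMM-scaled CPM of each library (y axis, starting at 0) for the breakdown genes TGG1, TGG2 and ESP and the transporters GTR1 and GTR2 in atd14-1, AtCXE15-OE and Col-0, with the mean ± SD of the 3 libraries as a bar. TGG1 and TGG2 are highest in Col-0, and ESP and GTR2 are highest in atd14-1.

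Other genes of the pathway were looked up from a list of 38 tested genes with roles in glucosinolate supply, regulation or breakdown; in atd14-1 9 rose and 2 fell, in AtCXE15-OE 1 rose and 2 fell, and between the lines 6 were higher and 1 lower in atd14-1. Over all genes tested, the shares called higher and lower were 5.06% and 6.87% in atd14-1 and 0.761% and 1.51% in AtCXE15-OE. For the direct comparison of the lines these shares were 2.82% and 4.12%. The smaller counts changed when 1 library was left out. In AtCXE15-OE 1 of these genes was called without atd14-1 replicate 2 or 3, AtCXE15-OE replicate 2 or 3 or Col-0 replicate 1 or 2, and between the lines 4 were called without any 1 of the atd14-1 replicates, AtCXE15-OE replicate 2 or 3 or Col-0 replicate 1. SDI1, a repressor of glucosinolate synthesis induced by sulfur shortage, had 35.7, 32.8 and 39.9 CPM in atd14-1, 23.4, 23.9 and 25.9 CPM in AtCXE15-OE and 20.8, 21.1 and 21.1 CPM in Col-0. It rose by 0.78 ± 0.08 on the log2 scale in atd14-1 (edgeR adjusted p = 1.96e-05), and was 0.57 ± 0.08 above AtCXE15-OE (adjusted p = 0.000826). Its relative SDI2 rose in both lines, by 0.45 ± 0.08 in atd14-1 and by 0.32 ± 0.08 in AtCXE15-OE (edgeR adjusted p = 0.00123 and 0.0407). The AtCXE15-OE call of SDI2 was lost on leaving out any single library other than AtCXE15-OE replicate 1 or Col-0 replicate 3, with adjusted p up to 0.169. MYC2, a bHLH activator that works with the MYBs, had 111, 114 and 115 CPM in atd14-1, 101, 101 and 108 CPM in AtCXE15-OE and 147, 142 and 145 CPM in Col-0. It fell in both lines, with a log2 change of -0.35 ± 0.05 in atd14-1 and -0.48 ± 0.05 in AtCXE15-OE (edgeR adjusted p = 0.000196 and 6.57e-05). Also higher in atd14-1 were the transporter GTR3 (0.56 ± 0.07), IPMI SSU2, a small subunit of the isomerase (0.39 ± 0.07), the glutathione transferase GSTF9 (0.36 ± 0.05), CB5C (0.34 ± 0.06) and BGLU30 (1.15 ± 0.20), with edgeR adjusted p from 8.67e-05 to 0.00146. IGMT4, named here after its values were seen as the other gene that fell in atd14-1, changed by -0.34 ± 0.07 on the log2 scale (edgeR adjusted p = 0.00326). ESM1, which favours isothiocyanates over nitriles, was 0.25 ± 0.06 lower in AtCXE15-OE on the log2 scale (edgeR adjusted p = 0.0284). That call was lost on leaving out any single library other than atd14-1 replicate 1 or AtCXE15-OE replicate 1, with adjusted p up to 0.137.

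Supply of activated sulfate, which the sulfotransferases use, had 3 of 9 genes higher in atd14-1 and 0 of 9 changed in AtCXE15-OE, with 0 at an unadjusted p under 0.05. Over all genes 5.06% were called higher in atd14-1, and 2.27% were called in either direction in AtCXE15-OE. The adenosine phosphosulfate kinases APK1 and APK2 rose by 0.24 ± 0.06 and 0.26 ± 0.06 on the log2 scale in atd14-1 and SAL1, a phosphatase that removes the by-product, by 0.23 ± 0.06 (edgeR adjusted p = 0.0136, 0.0106 and 0.0341). Without atd14-1 replicate 3 or Col-0 replicate 1, 0 of the 9 were called, and without Col-0 replicate 2, 1 was. APK1 and APK2 were also 0.22 ± 0.06 and 0.21 ± 0.06 above AtCXE15-OE (edgeR adjusted p = 0.0301 and 0.0458), where 0 of the 9 were called without any 1 of the atd14-1 replicates or AtCXE15-OE replicate 3. Of 3 genes of the camalexin branch, which starts from the same aldoxime as indolic glucosinolates, CYP71A12 rose in atd14-1 by 0.42 ± 0.08 (edgeR adjusted p = 0.00305) and 0 changed in AtCXE15-OE, again with 0 at an unadjusted p under 0.05.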

How the data were processed

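Per the labels' protocols, messenger RNA of whole seedlings was captured on oligo(dT) beads and copied with random primers, in a way that does not mark strand. Per the submitters' processing notes, the tools were Picard, HISAT2, DESeq 1.39.0 and SAMtools 0.1.18, with TAIR10 as the genome build; for the read counter, its strand setting and its treatment of shared reads the sources used here name nothing. The deposited file holds the authors' raw read counts per gene, and 24 of the 45 members are overlapped by a row longer than 20000 bases and 13 by a shorter one, so counts could be split between rows.

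All 9 libraries were fitted together with edgeR 4.0.16 in R 4.3.3 (filterByExpr, TMM scaling, robust quasi-likelihood test, group as the only term), with 3 contrasts and Benjamini-Hochberg adjustment over 21425 genes at 0.05. Levels are TMM-scaled CPM; 3 counts, the smallest level taken as measured, are 0.0542 to 0.0775 CPM. Standard errors are the log2 fold change divided by the root of the F statistic and are approximate. DESeq2 1.42.0, limma-voom (limma 3.58.1), other scalings and filters, the 6 libraries compared, a replicate block, each library left out, and paralogs or overlapping rows added together were tried as 19 alternatives; adding overlapping rows, and running most alternatives on the branch medians and the other genes of the pathway, were chosen after seeing the data. The members and all gene lists were chosen with earlier results of these data known. All 45 members are accounted for: library values are given for those called in any comparison and for the 6 MYB regulators, and of other lists at most the 8 called genes of smallest adjusted p per comparison are named, with exceptions stated. Libraries of a group correlated at 0.986 to 0.988 on the log2 scale, and each pair differed by more than counting noise (chi-square per degree of freedom 24.9 to 70.3). Promoters were the 250 bases before each start in the RefSeq annotation of TAIR10.1, to which 26694 rows of the table matched by locus, all on the same chromosome.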

Additional observations from a re-analysis of the deposited data

Results flagged for a closer look

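For 6 members the log2 fold changes against Col-0 had opposite signs in the lines and the direct difference, atd14-1 minus AtCXE15-OE, passed edgeR's quasi-likelihood test. The differences were 0.35 for CYP79F2, 2.13 for SOT18, 0.19 for FMO GS-OX4, 0.20 for SOT16, 0.50 for CYP81F3 and 0.31 for GTR2. The share of all genes that meet this rule is not given. Only the sign was used, and some changes did not clearly depart from 0. Among these were 0.02 ± 0.05 for SOT16 and 0.17 ± 0.33 for SOT18 in atd14-1, and -0.05 ± 0.05 for FMO GS-OX4 in AtCXE15-OE. For such genes opposite directions are not shown. CYP79F2 and GTR2 kept the call in all 19 alternatives. The alternatives that add rows together test the sum of CYP79F2 and CYP79F1, and there the change in AtCXE15-OE against Col-0 was 0.14, where CYP79F2 alone had -0.16, so that the lines did not point apart. The GTR2 difference was 0.16 with the row that overlaps it added. The SOT18 difference was 0.19 once the row that contains it was added. There the change in AtCXE15-OE against Col-0 was 0.06, where SOT18 alone had -1.95, so that the lines did not point apart. The cause of the jumps between those rows was not tested. For 5 of the 6 genes neither line differed from Col-0 past the threshold, and GTR2 was called higher in atd14-1.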

How the results depend on the processing

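Of the 21 members called in atd14-1 against Col-0, 16 kept their call in all 19 alternatives, of the 6 in AtCXE15-OE against Col-0 0 did, and of the 13 between the lines 4 did. Leaving out 1 library gave 17 to 24, 0 to 10 and 5 to 13 calls, and a median difference between the branches (aliphatic minus indolic, log2) of 0.37 to 0.43, 0.24 to 0.35 and 0.10 to 0.14, where all libraries gave 0.42, 0.29 and 0.12; for AtCXE15-OE it was 0.26 with overlapping rows added. DESeq2 called 14 members in AtCXE15-OE. The 38 other glucosinolate genes, the 9 of activated sulfate supply and the 3 of the camalexin branch together gave 15, 3 and 9 calls, and 11 to 18, 1 to 4 and 4 to 11 without 1 library; in AtCXE15-OE DESeq2 called 5 and the fit of only the 6 libraries compared called 1, and between the lines scaling by library size alone called 16 and the fit of 6 libraries 5. With neighbouring paralogs added, the atd14-1 change of MAM3 turned to 0.26 (the sum with MAM1) and that of MYB76 to 0.30 (the sum with MYB29), since the sum follows the more abundant gene.

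Deviations of same-numbered libraries from their group means correlated at -0.0905 to 0.0525, and those of differently numbered libraries at -0.0833 to 0.104. The check thus showed no pairing by replicate number, though it cannot exclude pairing that touches few genes. A fit with the replicate number as a block called 22, 5 and 14 members, with branch differences of 0.42, 0.29 and 0.12, and 16, 3 and 9 genes of the 3 other lists together. Effects are small, so at 3 libraries a group a p that misses the threshold does not show that levels were equal. The 5 counts of AOP3 lie too low for a comparison at this depth.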
